A study of Mus musculus with 2 samples.

Results

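The genes described here are 10 death receptor and TNF receptor genes and the proteins that act directly beneath them: Tnfrsf21, Tnfrsf1a, Tnfrsf1b, Tnfrsf10b, Fas, Tnfrsf12a, Ltbr, Traf2, Ripk1 and Casp8. They were taken by gene symbol, and all 10 of 10 were found among the 12707 listed genes. RNA was sequenced from live CD45-negative cells sorted from Py8119 tumours, 1 library from mice with wild-type Mtdh and 1 from mice with Mtdh knocked out. Py8119 is a mouse mammary tumour line, and the injected cells carried wild-type Mtdh in both libraries, so the genotype differed in the host alone. The libraries are called here the WT-host and the KO-host library, and paired values are given in that order. The labels do not give how many tumours were pooled, the strain, age or knockout allele of the mice, or the time of harvest. Mtdh itself was at 1088 and 989 RPM (reads per 1000000 recovered reads); the injected cells supply it in both libraries, so it does not check the host label. The gate leaves tumour cells together with any CD45-negative stromal cells of the host, and in such a bulk sample fewer cells of a type and less RNA per cell cannot be told apart. There was no replicate, so every difference below describes this pair of libraries and has no test.

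Receptors of the TNF superfamily are bound by trimeric ligands and signal through proteins that assemble on their cytoplasmic tails. Death receptors carry a death domain, through which they can recruit FADD and caspase-8 and start apoptosis. TNF receptor 1 also builds a complex of TRADD, RIPK1, TRAF2 and cellular IAPs on which ubiquitin chains activate NF-kB, and cell death follows when that complex fails. Receptors without a death domain bind TRAF proteins and signal mainly to NF-kB and to survival. In tumours these receptors receive signals from T cells, NK cells and macrophages.

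Among the 10 genes, Tnfrsf21 was far lower and Tnfrsf1a higher in the KO-host library, Traf2 was lower, and the other 6 with enough reads differed by less than 1.3-fold. Values were turned back into reads, giving 26069385 reads in the first and 23381852 in the second, and levels are given as RPM. Ratios of RPM have 95% exact conditional binomial intervals. They cover counting error only, and with 1 library per host they hold no variation between tumours or mice. They treat reads as independent, which PCR copies are not, so they may be too narrow even for counting error. Of the 9 genes with 100 or more reads over both libraries, 1 was at least 2-fold lower and 0 were at least 2-fold higher. Of all 10653 genes with that many reads and a value above 0 in both libraries, 11.3% were at least 2-fold lower and 8.4% at least 2-fold higher. The 9 genes all had 1000 reads or more, and among the 6613 genes with that depth the shares were 3.92% lower and 2.84% higher. The median log2 RPM ratio of the 9 genes was 0.13, against -0.06 over the 10653 genes, whose quartiles were -0.47 and 0.32. On the deposited scale of log2(FPKM + 1), 8 of the 10 genes had a mean of 1 or more; 1 was lower by 1 or more and 0 were higher. The shares of all 6057 genes with such a mean were 2.64% lower and 2.31% higher. A count of 1 among so few genes is read beside those shares as a description. The set was selected on biological role with the deposited log2 values of both libraries already known, so its differences are a description and support nothing further.

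**Figure D1:**
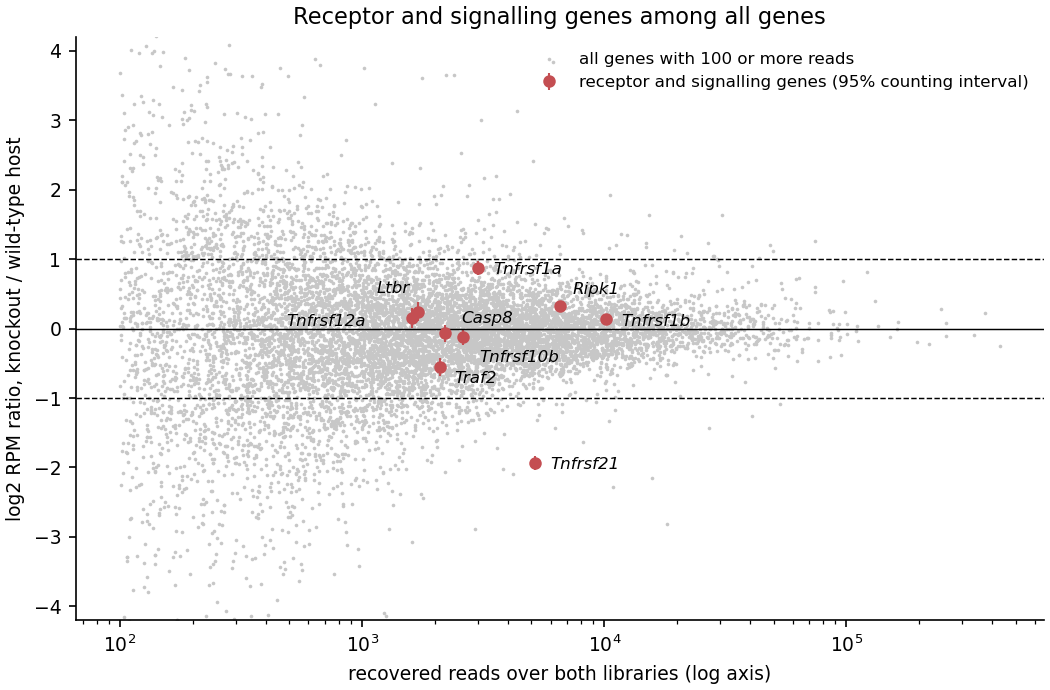
Log2 RPM ratio (knockout over wild-type host) of each gene with 100 or more reads, against its recovered reads over both libraries on a log axis; grey points are all genes, and red points are the receptor and signalling genes with 95% counting intervals. Dashed lines mark a 2-fold difference; Tnfrsf21 lies below the lower line at -1.94, Tnfrsf1a is the highest red point at 0.87, Fas has too few reads to be drawn, and 205 grey points lie beyond the vertical axis.

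The 2 receptors with the largest opposite differences are shown first by the sequence just upstream of their transcription starts, so that the motifs compared below can be seen in place. Each is the 250 bases before the RefSeq start, on the plus strand of GRCm38.p6: chr17:43016305-43016554 for Tnfrsf21 and chr6:125349473-125349722 for Tnfrsf1a. Capitals mark matches to the motifs searched.
Tnfrsf21: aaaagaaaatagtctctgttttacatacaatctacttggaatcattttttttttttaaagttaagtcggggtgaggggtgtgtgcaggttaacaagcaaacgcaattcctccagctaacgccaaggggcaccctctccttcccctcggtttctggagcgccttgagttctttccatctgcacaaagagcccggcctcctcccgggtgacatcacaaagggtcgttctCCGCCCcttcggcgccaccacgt
Tnfrsf1a: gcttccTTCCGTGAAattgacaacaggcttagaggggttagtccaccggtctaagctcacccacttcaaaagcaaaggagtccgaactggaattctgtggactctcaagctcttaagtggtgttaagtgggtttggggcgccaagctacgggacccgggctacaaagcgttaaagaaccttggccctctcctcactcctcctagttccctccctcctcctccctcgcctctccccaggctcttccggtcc
The capitals in the Tnfrsf21 window are a GC box (GGGCGG) read on the minus strand. Those in the Tnfrsf1a window match the interferon gamma activated site (TTCNNNGAA). Both strands were searched, and the 2 matches overlap no other motif.

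Promoter entries were found for 9 of the 10 genes, with 2 for Ripk1, and Tnfrsf10b had no entry. A GC box was in 7 of these 10 windows, against 58.6% of the 11020 windows of genes with 100 or more reads and 32.7% of all 32851 windows. The interferon gamma activated site was in 4 windows (Tnfrsf1a, Tnfrsf1b, Fas and 1 of those of Ripk1), against 5.7% and 7.0%. Fas held an AP-1 site (TGANTCA), as 4.7% and 6.7% of windows did. The Fas window is less certain than the others, because the bases after its RefSeq start were not found in a GENCODE M21 transcript of the gene, as they were for every other window of these genes. An E-box (CACGTG) was in the windows of Fas and Ltbr, against 8.3% and 6.0%. The NF-kB consensus matched 0 of the 10 windows, against 4.4% and 3.9%. The genes with an interferon gamma activated site had unlike differences in RNA, from 0.13 for Tnfrsf1b to 0.87 for Tnfrsf1a in log2 RPM ratio, with Fas too low to give a ratio. A match describes letters in this window and says nothing of whether a factor was bound.

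Tnfrsf21, a receptor with a death domain, gave the largest difference of the 9 genes with 100 or more reads. Tnfrsf21 encodes death receptor 6, which has been studied mainly in neurons and lymphocytes; the gene lies on chromosome 17 from 43327446 to 43400080 on the plus strand (mm39). It had 4205 reads in the WT-host library and 985 in the KO-host library, or 161.3 and 42.1 RPM. That is 3.83-fold lower (95% counting interval 3.57 to 4.11). On the deposited scale its log2(FPKM + 1) was 1.69 and 0.66, a difference of -1.03. Its 72635-base span brings its FPKM down to 2.22 and 0.58, where the added 1 shortens the difference. The direction was the same on both scales, and reads do not depend on the added 1.

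Tnfrsf1a, which encodes TNF receptor 1, the main receptor for soluble TNF, went the other way. The gene lies on chromosome 6 from 125326325 to 125339447, on the plus strand. Its reads were 1144 and 1878, or 43.9 and 80.3 RPM, in the WT-host and KO-host libraries. The level was 1.83-fold higher in the latter (1.70 to 1.97), and log2(FPKM + 1) was 2.12 and 2.83. It stayed short of the 2-fold rule and of a difference of 1 on the deposited scale.

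The other receptors with a death domain were close between the libraries, for Tnfrsf10b, or had few reads, for Fas. Tnfrsf10b, the TRAIL receptor of the mouse (chromosome 14, 70004921 to 70021860, plus strand), had 1431.2 and 1176.6 reads, or 54.9 and 50.3 RPM, a ratio of 0.917 (0.848 to 0.991). Its recovered reads were not whole numbers, so its count is less certain; the reason was not tested. Fas, the receptor for Fas ligand (chromosome 19, 34268066 to 34305172, plus strand), was listed at 0 in the WT-host library and had 27 reads in the other. Housekeeping genes such as Timm13 also hold zeros in this table, so no ratio is given for Fas. In the KO-host library its level was 1.15 RPM, under those of the other 6 receptors there.

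Receptors without a death domain were all slightly higher in the KO-host library, by 1.10-fold to 1.19-fold. Tnfrsf1b, which encodes TNF receptor 2 and responds best to membrane-bound TNF (chromosome 4, 144940033 to 144973440, minus strand), had 5142 and 5053 reads, or 197 and 216 RPM, a ratio of 1.10 (1.05 to 1.14). Tnfrsf12a, also known as Fn14, is the receptor for TWEAK and is induced by growth factors and injury. It lies on chromosome 17 from 23894419 to 23896442 on the minus strand, and had 802 and 798 reads, or 30.8 and 34.1 RPM, a ratio of 1.11 (1.005 to 1.23). Ltbr, the lymphotoxin beta receptor, activates the non-canonical NF-kB pathway. It lies on chromosome 6 from 125283534 to 125290848 on the minus strand, with 826 and 878 reads, or 31.7 and 37.6 RPM, a ratio of 1.19 (1.08 to 1.30). Differences of this size were common, since the upper quartile of the log2 RPM ratio over genes with 1000 reads or more was 0.24, and those of these 3 genes were 0.13, 0.15 and 0.25.

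The balance among receptors therefore differed between the libraries mainly through Tnfrsf21 and Tnfrsf1a. Of the reads of all 7 receptors, Tnfrsf21 took 31.0% (95% Wilson interval 30.3 to 31.8) in the WT-host library and 9.12% (8.60 to 9.68) in the other. Tnfrsf1a took 8.44% (7.99 to 8.92) and 17.4% (16.7 to 18.1), and Tnfrsf1b 37.9% and 46.8%. Tnfrsf10b took a like share, 10.6% and 10.9%. Within the pair of TNF receptors, Tnfrsf1a made up 18.2% of reads (17.3 to 19.2) and 27.1% (26.1 to 28.2). The 4 receptors with a death domain summed to 260.1 and 173.9 RPM, and the 3 without one to 259.7 and 287.8 RPM. The difference in the first sum rests on Tnfrsf21. Its other genes were Tnfrsf1a at 43.9 and 80.3 RPM, Tnfrsf10b at 54.9 and 50.3, and Fas at 0 and 1.15. All 6 receptors but Tnfrsf21, with and without a death domain, summed to 358.5 and 419.6 RPM, a ratio of 1.17 (1.14 to 1.20).

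**Figure D2:**
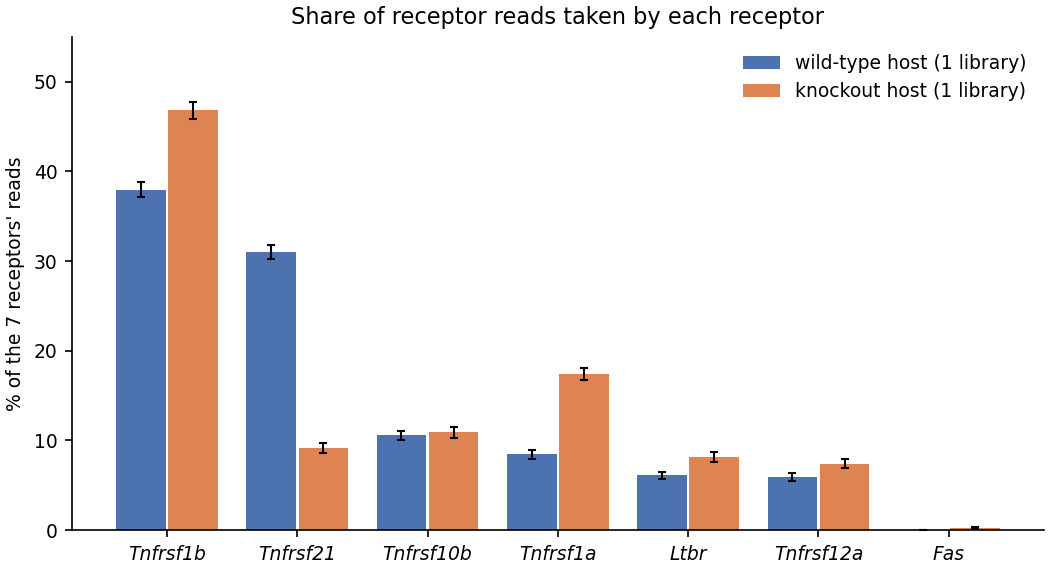
Share of the reads of the 7 receptors taken by each receptor, in percent, with 1 bar per library and 95% Wilson intervals that cover counting error only. The bars of Tnfrsf21 go from 31.0% to 9.12% and those of Tnfrsf1a from 8.44% to 17.4%, while those of Tnfrsf10b are level at 10.6% and 10.9%.

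Among the proteins beneath the receptors, Traf2 was lower, Ripk1 slightly higher and Casp8 nearly level. Traf2, a ubiquitin ligase adaptor that brings cellular IAPs to TNF receptors (chromosome 2, 25407994 to 25436952, minus strand), had 1294.4 and 794.2 reads, or 49.7 and 34.0 RPM. That is 1.46-fold lower (1.34 to 1.599) in the KO-host library, and these reads were not whole numbers either. Ripk1, the kinase and scaffold that turns the TNF receptor 1 complex towards survival or death (chromosome 13, 34186346 to 34221130, plus strand), had 3101 and 3473 reads, or 119.0 and 148.5 RPM, a ratio of 1.25 (1.19 to 1.31). Casp8, the initiator caspase of death receptors (chromosome 1, 58834533 to 58886662, plus strand), had 1181 and 1011 reads, or 45.3 and 43.2 RPM, a ratio of 0.954 (0.877 to 1.04). Its counting interval includes 1. Traf2 was 29.4% of the reads of Traf2 and Ripk1 together in the WT-host library (28.1 to 30.8) and 18.6% in the other (17.5 to 19.8). Casp8 was 26.3% (25.01 to 27.6) and 22.9% (21.7 to 24.2) of the reads of Casp8 and Cflar, the gene of its inhibitor c-FLIP.

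Levels of different genes were compared per kb of exon sequence, because the deposited values divide by the whole span of a gene, introns included. In the WT-host library the order of RPM per kb of exon ran from Tnfrsf1b at 51.7 and Tnfrsf21 at 39.3 to Tnfrsf1a at 16.9, Tnfrsf12a at 15.9, Casp8 at 15.7, Ripk1 at 14.3, Ltbr at 13.5, Tnfrsf10b at 10.1 and Traf2 at 9.73, with Fas at 0. In the KO-host library Tnfrsf1b was again highest at 56.6, followed by Tnfrsf1a at 31.0, while Tnfrsf21 was at 10.3, next to Tnfrsf10b at 9.23. The genes from Tnfrsf12a to Ltbr lay within 14.9 and 17.8 there. With 1 library per host there is no spread against which neighbours in this order could be told apart.

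**Figure D3:**
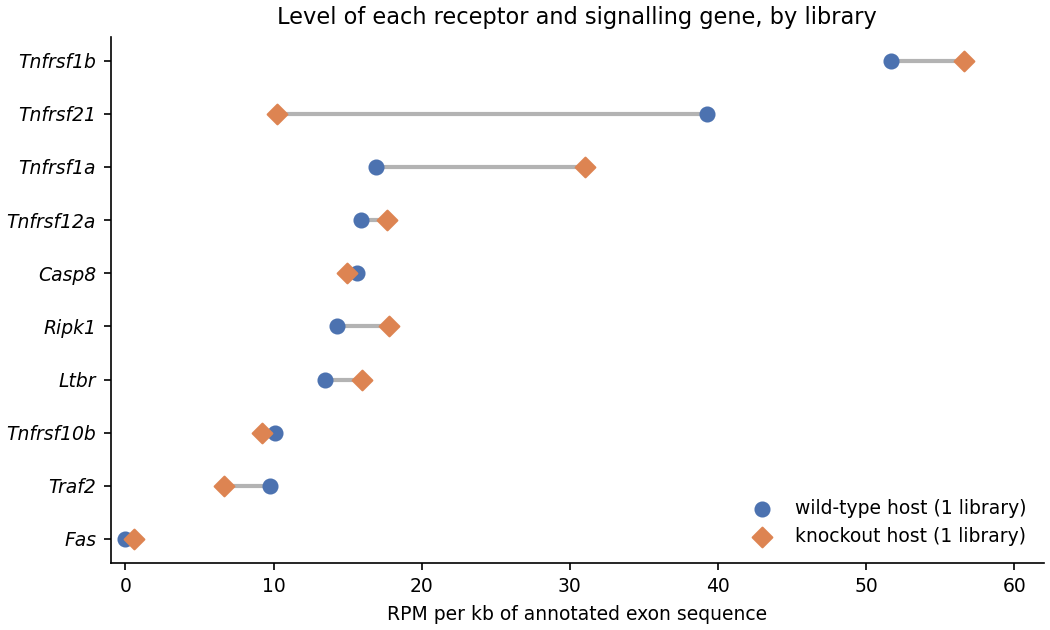
RPM per kb of annotated exon sequence for each of the 10 genes, with a circle for the WT-host library and a diamond for the KO-host library, joined by a line and sorted by the former. The 2 long lines are those of Tnfrsf21, from 39.3 to 10.3, and Tnfrsf1a, from 16.9 to 31.0; Fas lies at or near 0 in both.

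Of 18 family ligands 6 were in the table, and 3 had 100 reads or more and a value above 0 in both libraries. Of these, 2 were at least 2-fold higher in the KO-host library and 1 at least 2-fold lower, beside 8.4% and 11.3% of all genes. The genes of TNF, lymphotoxins and Fas ligand were among the 12 not analysed here. Tnfsf10, which encodes TRAIL, the ligand of the Tnfrsf10b receptor, had 7 and 151.7 reads, a ratio of 24.2 (11.5 to 61.2), and its level was 6.49 RPM in the KO-host library. Eda, the ectodysplasin gene, had 28 and 114 reads, a ratio of 4.54 (2.98 to 7.13). Tnfsf9, the ligand of 4-1BB, had 114 and 42 reads and was 2.43-fold lower (1.70 to 3.56). Tnfsf4 was listed at 0 and had 40 reads in the KO-host library, and Tnfsf13 had 36 reads and was listed at 0 there. Genes with so few reads vary widely between these libraries, as the difference between the shares at 100 and at 1000 reads above shows.

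Other receptors of the family were 12 of 21 in the table. Of the 7 with 100 reads or more, 2 were at least 2-fold higher, 1 was at least 2-fold lower and 4 lay between. The shares of all genes were 8.4% higher and 11.3% lower. The median log2 RPM ratio of the 7 was 0.55, against -0.06 over all genes. Tnfrsf11a, which encodes RANK, had 61 and 141 reads, a ratio of 2.58 (1.90 to 3.54). Tnfrsf26 had 131 and 272 reads, a ratio of 2.32 (1.87 to 2.87), and Tnfrsf22, a decoy receptor for TRAIL in the same cluster of chromosome 7, had 290 and 123.9 reads and was 2.10-fold lower (1.69 to 2.61). Tnfrsf23, the other decoy of that cluster, chosen after its values were seen, had 495 and 842.1 reads. These genes are close copies of one another, so the split of reads between them is uncertain. Eda2r, a receptor for one form of ectodysplasin, had 1020 and 1337 reads, a ratio of 1.46 (1.35 to 1.59), and Tnfrsf9, which encodes 4-1BB, 682 and 671 reads, a ratio of 1.10 (0.985 to 1.22).

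Of the 6 adaptors of the death-inducing and TNF receptor 1 complexes with 100 reads or more, 0 passed the 2-fold rule in either direction, where the shares of all genes were 11.3% lower and 8.4% higher. Cflar had 3313.9 and 3404.1 reads, a ratio of 1.15 (1.09 to 1.20). Faf1, a FAS-associated factor, had 1534 and 914 reads and was 1.51-fold lower (1.39 to 1.64), while Mlkl, the effector of necroptosis, was at a ratio of 1.33 (1.18 to 1.51) and Daxx at 0.855 (0.708 to 1.03). The median log2 RPM ratio of the list was -0.03. Ripk3, the kinase that activates Mlkl, was not analysed here, and Cradd had 62 reads and was listed at 0 in the KO-host library.

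Among the ubiquitin ligases and editors of the receptor complex, Birc3 and Tnfaip3 were at least 2-fold higher in the KO-host library, and Otulin and Tnip2 were at least 2-fold lower. Birc3, which encodes cellular IAP2, had 1727.5 and 3175.2 reads, 2.05-fold higher (1.93 to 2.17), and it was the 1 of 9 TRAF and IAP genes past the rule. The others lay between, with Xiap at a ratio of 0.947, Traf1, chosen after its values were seen, at 0.923, Traf4 at 1.56 and Traf7 at 0.672. Tnfaip3, which encodes A20, the ubiquitin-editing enzyme that shuts off TNF receptor signalling, had 89.2 and 194.3 RPM per kb of exon. It was 2.18-fold higher (2.14 to 2.22) on 16802.8 and 32827.5 reads. The reads of Birc3, Tnfaip3 and Cyld were not whole numbers, so their counts are less certain. Of the 11 genes of linear ubiquitin assembly and editing, 1 was at least 2-fold higher and 2 at least 2-fold lower. The counts of both lists are read beside the shares of all genes, 8.4% higher and 11.3% lower, as a description. Otulin, a deubiquitinase of linear chains, had 108 and 16 reads, 6.05-fold lower (3.56 to 10.97), and Tnip2 had 188 and 64, 2.63-fold lower (1.97 to 3.56). Cyld, another deubiquitinase of the complex, had 6331.3 and 4426.7 reads, a ratio of 0.779 (0.750 to 0.810). The median log2 RPM ratios of both lists were -0.08 and 0.03, against -0.06 over all genes with 100 or more reads.

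Of 16 kinases downstream of the complex, 15 lay within 2-fold and 1 was at least 2-fold lower, beside 11.3% lower and 8.4% higher over all genes. Their median log2 RPM ratio was 0.16, with 10 above 0 and 6 below. Map3k7, which encodes TAK1, was at a ratio of 0.849 (0.808 to 0.893) and its partner Tab2 at 1.12 (1.07 to 1.18). Mapk8, which encodes JNK1, had 933 and 1570 reads, a ratio of 1.88 (1.73 to 2.04), and Tab1 was at 1.74 (1.42 to 2.14). Ikbke was 6.36-fold lower (4.01 to 10.6) on 149 and 21 reads.

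In the caspase cascade, 1 of 11 genes was at least 2-fold higher, 1 at least 2-fold lower and 9 lay between, close to the 8.4% and 11.3% of all genes. The median log2 RPM ratio of the list was -0.11. Casp9, the initiator of the mitochondrial branch, was 1.90-fold lower (1.70 to 2.13). Dffa, the inhibitor of the apoptotic nuclease, was 2.14-fold lower (1.79 to 2.55), and Apaf1 was at a ratio of 1.13 (1.07 to 1.19). Cycs, the gene of cytochrome c, was 4.96-fold higher (4.39 to 5.62) on 319.1 and 1420.1 reads. Cycs has processed copies in the genome and its reads were not whole, so that value is uncertain. Adam17, the sheddase of TNF and its receptors, was at a ratio of 0.896 (0.850 to 0.944), Adam10 at 1.25 (1.21 to 1.29) and Rhbdf1, a partner of Adam17, at 0.784 (0.693 to 0.886). Their inhibitor Timp3 had 9 and 126 reads, a ratio of 15.6 (7.97 to 34.9).

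**Figure D4:**
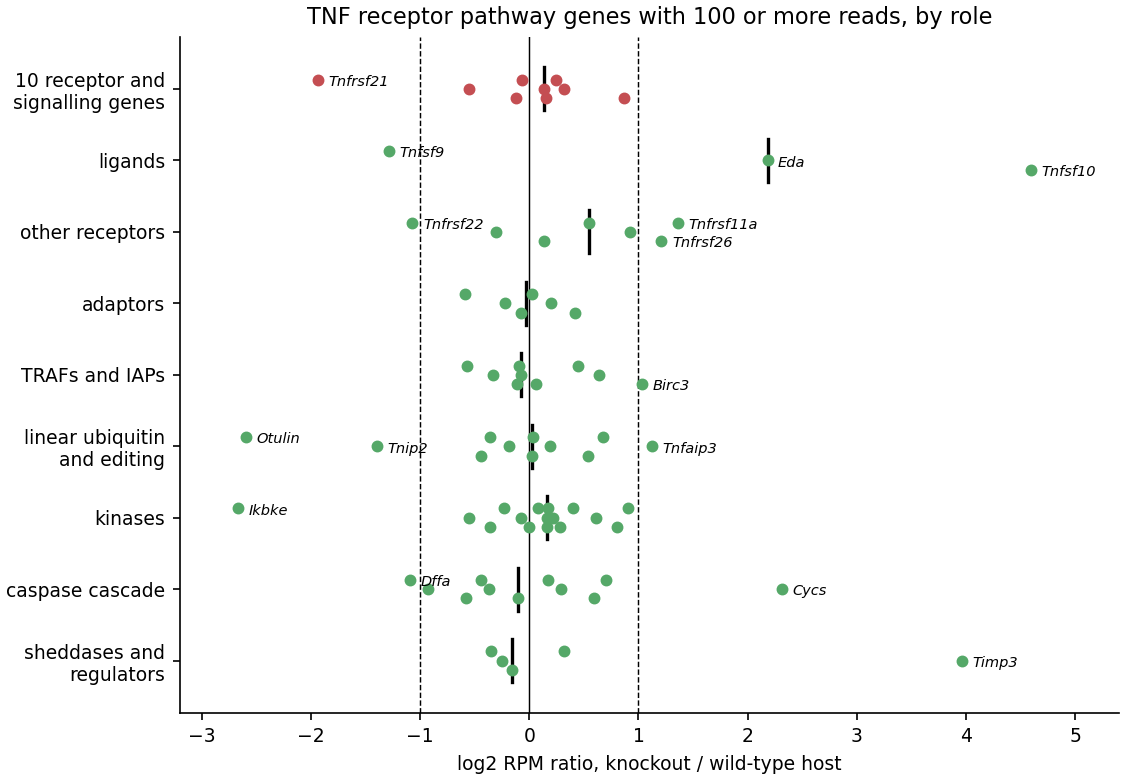
Log2 RPM ratio (knockout over wild-type host) of each pathway gene with 100 or more reads that is above 0 in both libraries, in rows by role; each point is 1 gene, the short black line is the median of the row, and dashed lines mark 2-fold. The rows of adaptors, kinases and TRAFs centre near 0 with medians of -0.03, 0.16 and -0.08, and points past a dashed line carry their names, among them Tnfrsf21, Birc3 and Tnfaip3.

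Markers of stromal cells also differed between the libraries. Their counts are read beside the shares of all genes with 100 or more reads, 11.3% at least 2-fold lower and 8.4% at least 2-fold higher. Of 8 fibroblast markers 6 were listed, and their summed level was 2079.2 and 824.8 RPM. All 6 had a ratio below 1, and 4 of them were at least 2-fold lower in the KO-host library. Col1a1 was 7.02-fold lower and Col3a1 2.40-fold lower. Col1a2 was at a ratio of 0.65, and Pdgfra was nearly level at 0.966 (0.930 to 1.0035), an interval that includes 1. Lum and Col14a1 were not analysed here. Of 8 pericyte and smooth muscle markers 5 were listed, and these 5 summed to 423.6 and 93.4 RPM. The 3 with 100 reads and a value above 0 in both libraries were all at least 2-fold lower. Pdgfrb was 4.88-fold and Notch3 4.53-fold lower. Cspg4 was listed at 0 in the KO-host library, while Abcc9 went the other way with 1 and 55.7 reads. The part of these cells in the lower Tnfrsf21 level was not tested. Pan-leukocyte and myeloid markers summed to 39.1 and 36.4 RPM over 10 genes, and went both ways: of the 8 with 100 reads or more, 2 were at least 2-fold higher, 1 was at least 2-fold lower and 5 lay between. Fcer1g had 31 and 70 reads and Cd68 33 and 70, Itgam had 237 and 25, and Lcp1 was at a ratio of 0.947 and Csf1r at 1.10. T, NK and B cell markers summed to 1.07 and 4.14 RPM over the 3 listed, with Cd8a at 6.8 and 53 reads, Ms4a1 at 2.1 and 42.8, and Cd4 at 19 and 1. Endothelial markers summed to 18.3 and 14.2 RPM over 3 listed genes, with Pecam1 at a ratio of 1.11, Plvap 5.38-fold lower and Cdh5 at 1 and 146 reads. Epithelial and mesenchymal tumour cell markers summed to 3646.5 and 3458.8 RPM over 7 genes, of which Vim made up most. The mesenchymal markers Vim, at a ratio of 0.917, and Zeb1, at 0.933, were slightly lower, while the epithelial ones were higher, with Krt8 at 1.42, Krt18 at 1.57, Cdh1 at 1.67 and Epcam at 3.06. Those beyond the 2 with most reads in each list were chosen after their values were seen.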

How the data were processed

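RNA-seq of 2 libraries was used, 1 per host genotype. The authors deposited log2 values, named in the table as log2 of FPKM + 1; per the submitters' processing notes STAR 2.7.8a, Partek and the build mm39 were used, with no roles given. Counting settings, annotation release and any gene filter were not given in the sources used here. In the deposited table the length column equals stop minus start in 100% of rows, so FPKM was computed on genomic span; the printed end is stop minus 1. FPKM times length summed to 1000000 in each library. Reads were recovered as whole multiples of the smallest step with Python 3.11.15, NumPy 2.4.6 and SciPy 1.17.1. With a tolerance of 0.1 read, 84.9% and 83.4% of the values below 1000 reads came out whole. Why the rest did not was not tested. Named genes past the 2-fold rule whose reads were not whole include Birc3, Tnfaip3, Tnfsf10, Tnfrsf22, Dffa, Cycs, Col3a1 and Pdgfrb. The recovery was also run on simulated whole-number counts. Those hold no fractional reads, so that run does not check the values that did not come out whole.

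Genes passed the size rule with a difference of 1 or more in log2(FPKM + 1), at a mean of 1 or more, and the read rule with a 2-fold RPM ratio, at 100 or more reads and above 0 in both libraries. Exon lengths are unions of exons in GENCODE M21 by gene ID. From each pathway list, up to 3 genes with the largest ratio and 2 with most reads were named, and from each marker list the 2 with most reads; other named genes were chosen after their values were seen. Not every gene taken by this rule is reported. The members and lists were chosen with earlier results of these data known. Alternatives varied the added constant, the filters and the scaling. No test was possible with 1 library per group.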

Additional observations from a re-analysis of the deposited data

How the results depend on the processing

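No paired analysis was possible because there was 1 library per host. The 1 gene lower by the size rule was Tnfrsf21, and the count of genes lower was 0 with 5 added before the log2 (difference -0.37), 0 with a mean of 2 or more, which removes Tnfrsf21, and 0 when differences were centred on their median of -0.03, which leaves it just inside 1. With 0.1 added its difference was -1.77. By the read rule it was the 1 gene lower under both other scalings and both other read minimums, and 0 genes were higher under any alternative run. The mean log2 RPM ratio over the 9 genes was -0.11, opposite in sign to the median of 0.13; without Tnfrsf21, an alternative added after seeing the data, it was 0.12. For single genes among the 10, 0 of 38 values under alternatives turned a direction. Scaling by the median of ratios moved all log2 RPM ratios by 0.06. The adaptor list's median turned to 0.037 under that scaling and to 0.20 with 1000 or more reads, and the tumour marker list's turned from 0.51 to -0.10 with 1000 or more reads. With 1000 or more reads, 0 of the remaining genes were at least 2-fold lower among the linear ubiquitin genes, the kinases and the caspase cascade, and 0 past 2-fold in either direction among the other receptors. Fas, at 0 and 27 reads, is under the minimum for a ratio.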

Other observations

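The genes next to Tnfrsf21 and Tnfrsf1a on their chromosomes, chosen after values were seen, went both ways around Tnfrsf1a and before Tnfrsf21. Of the 4 nearest listed genes after Tnfrsf21, 3 were lower in the KO-host library and the other was listed at 0 there. Lower ratios were common, with 5797 of the 10653 genes with 100 or more reads below 0 in log2 RPM ratio. Adgrf1 and Slc25a27, among those 4 genes, had fewer than 100 reads over both libraries. Whether position has a part in these values was not tested. On chromosome 17, Cd2ap, the nearest listed gene before Tnfrsf21, was at a ratio of 1.08 (95% counting interval 1.04 to 1.12) on 5112.9 and 4949 reads. Mmut was at 0.908 (0.838 to 0.983) and Cenpq at 0.750 (0.662 to 0.848), while 9130008F23Rik had 1 and 53 reads. After Tnfrsf21, Pla2g7 was at 0.654 (0.598 to 0.714), Slc25a27 at 0.188 (0.0986 to 0.334) on 83 and 14 reads and Cyp39a1 at 0.668 (0.564 to 0.789). Adgrf1 had 65 reads and was at 0 in the KO-host library.

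On chromosome 6, 3 receptors of the family lie close together. Cd27, a receptor of T cells, had 74 and 18 reads, a ratio of 0.271 (0.152 to 0.459), while its neighbour Ltbr was at 1.19 and Tnfrsf1a at 1.83. Scnn1a, between Ltbr and Tnfrsf1a, had 86 reads and a listed value of 0 in the KO-host library, and Cd9, a tetraspanin gene beyond them, was at 1.40 (1.34 to 1.45). Tapbpl, which acts in peptide loading of MHC class I, had 45.2 and 189.7 reads.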
